A study of Drosophila melanogaster with 384 samples.

Results

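Brat tumor neuroblasts with high and with low transcript levels of Notch target genes were compared within single-cell RNA sequencing of larval brains of Drosophila melanogaster. Cells were chosen by measured levels. Each tumor cell was given a Notch target score, the mean of log2(CPM + 1) over E(spl)mgamma-HLH, E(spl)mbeta-HLH and E(spl)m8-HLH, where CPM is reads per 1000000 reads of the cell. On each of 2 tumor plates the cells were ranked by this score and divided into 3 parts, of 31 cells each on plate 3 and of 30, 32 and 30 cells on plate 4. The 61 high-scoring cells (31 on plate 3 and 30 on plate 4) were compared with the 61 low-scoring cells (31 and 30). These cells came from 93 and 92 kept tumor cells on the plates and from 384 sorted wells in all. The 3 genes of the score chose the cells and are left out of every count below.

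Tumor cells carried UAS-Dcr2/+, inscGal4 with UAS-CD8::GFP/+ and the hairpin sh-brat (BL34646)/+, and control cells the same driver, Dcr2 and GFP with the hairpin sh-mCherry (BL35785)/+. The insc driver is active in neuroblasts, which are the stem cells of the fly nervous system, and the membrane GFP lasts into their recent progeny. Larvae were kept at 29 °C and taken at 6 to 7 days as wandering larvae of the last instar. Central brains without the nerve cord were pooled, 3 for tumor and 5 for control, and GFP-positive cells were sorted, 1 to a well, into plates of 96 wells. Both tumor plates come from 1 pool, so the plates repeat the sorting and the library and not the animals. For this reason no test was run and p-values are absent. A gene is called higher or lower where the high-scoring cells differed from the low-scoring cells at least 2-fold in the same direction on both plates.

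Notch is a membrane receptor that is cut when a ligand on a neighboring cell binds it, and the freed intracellular part enters the nucleus. There it joins the DNA-binding protein Su(H) and the coactivator Mastermind and switches on targets, chief among them the bHLH repressor genes of the Enhancer of split complex. In larval neuroblasts Notch signaling maintains self-renewal together with the related repressor Deadpan. Brat normally lowers this program in the daughter that is to differentiate, and type II lineages, marked by pnt and lacking ase, are the ones that overgrow when brat is lost.

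As a group the tumor cells scored above control cells, so most low-scoring cells are low only among tumor cells. The median score was 11.57 on plate 3 (range 5.74 to 13.64) and 11.32 on plate 4 (6.08 to 14.24). It was 7.79 and 8.02 on the control plates. Of the control cells, 1 of 89 and 0 of 91 scored above the highest low-scoring tumor cell of plate 3. The divisions fell in a continuous distribution. On plate 3 the last low-scoring cell and the next cell above it were both at 11.39, and the first high-scoring cell was at 11.83 with a neighbor at 11.82. On plate 4 these values were 10.74 and 10.74, and 11.60 and 11.59. High-scoring cells were bunched (medians 12.18 and 12.06), whereas the low-scoring cells formed a long tail below.

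**Figure D1:**
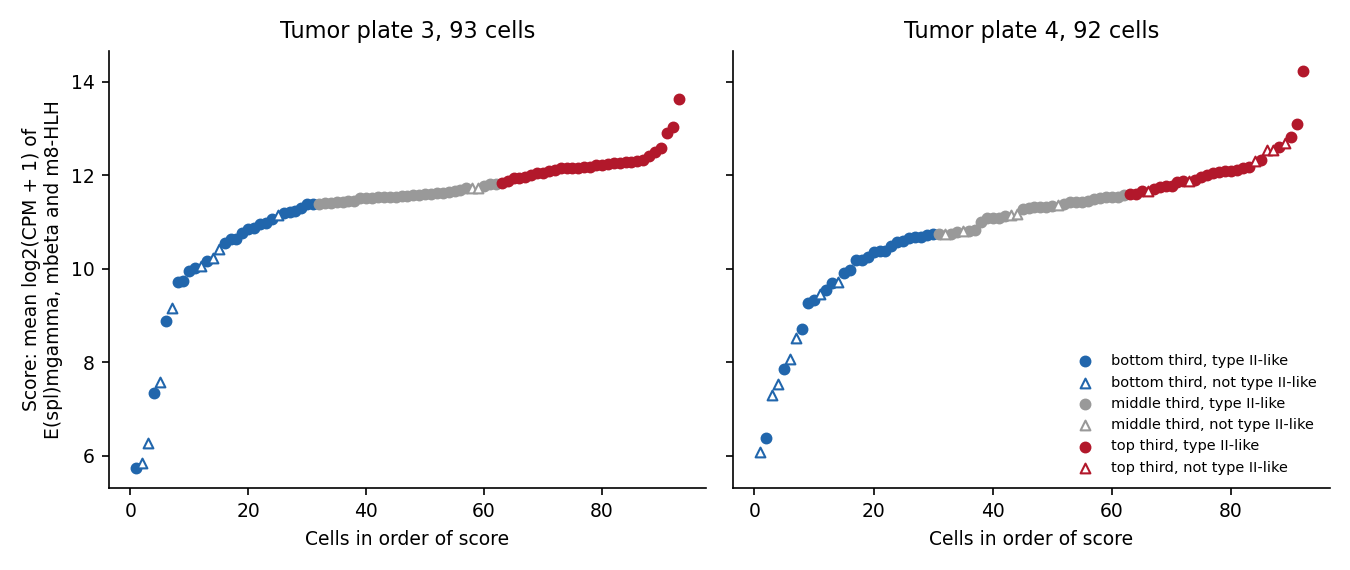
Notch target score, the mean log2(CPM + 1) of 3 E(spl) genes (y axis), of every kept tumor cell of plates 3 and 4, placed in order of score (x axis) and colored by score group (top, middle and bottom mean high, middle and low scoring), with type II-like cells as filled circles and other cells as open triangles. The scores run from 5.74 to 13.64 on plate 3 and from 6.08 to 14.24 on plate 4, without a gap at either division and with a long tail of low-scoring cells.

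The levels of the score genes describe the split and are not results. E(spl)mgamma-HLH stood at 9718 CPM in the high-scoring and 3205 CPM in the low-scoring cells of plate 3, and at 9973 and 3138 CPM on plate 4. E(spl)mbeta-HLH had 3069.7 and 1253 CPM on plate 3 and 3469.9 and 792 CPM on plate 4, and E(spl)m8-HLH had 4585 and 1407 CPM and 3861 and 544 CPM. Here and below, a level of a group is the CPM of its reads summed over cells. The 3 genes lie within the E(spl) complex on chromosome 3R, E(spl)mgamma-HLH from 25999851 to 26000761 (BDGP6, forward strand), E(spl)mbeta-HLH from 26005046 to 26006023 (reverse) and E(spl)m8-HLH from 26040240 to 26041008 (forward).

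High-scoring cells showed fewer genes than low-scoring cells at equal depth. With every cell thinned to 100000 reads, the median was 2972 genes (999 to 4399) in high-scoring and 3446 (832 to 5848) in low-scoring cells of plate 3. On plate 4 it was 2579.5 (918 to 5290) against 3540.5 genes. The Spearman correlation between score and genes per cell was -0.27 over 93 cells and -0.34 over 92 cells. Median reads per cell were 1103835 and 1220919 on plate 3 and 965333.5 and 1113807 on plate 4. Kept tumor cells held 185566 to 1960187 reads, and 7 tumor wells under 100000 reads or 1000 genes were left out. The share of the fewer genes per cell in the differences below was not tested. In cells balanced for genes per cell, described at the end, fewer genes were called. Balanced values are given for genes named below that were then no longer called, except that none were taken for Mcm5 and dup.

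All high-scoring cells of plate 3, and most cells of the other groups, carried the type II factors. A cell was called type II-like if at least 3 of the 4 genes pnt, btd, tll and Sp1 each had 5 reads or more. This held for 31 of 31 high-scoring cells on plate 3 (exact 95% interval 88.8 to 100%) and 24 of 30 on plate 4 (61.4 to 92.3%). It held for 23 of 31 low-scoring cells on plate 3 (55.4 to 88.1%) and 23 of 30 on plate 4. The 8 low-scoring cells of plate 3 that were not type II-like had little dpn, mira or pnt in most cells, with medians of 3.41, 1.26 and 0.56 CPM per cell. Their summed levels were 593 CPM of ase, 944 CPM of nerfin-1 and 820.4 CPM of Hey. The first is a gene that type II neuroblasts lack, and the others are genes of neuroblast daughters and young neurons.

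The other cells outside the type II class were of mixed kinds. On plate 4 the 6 high-scoring ones carried dpn at 2669.8 CPM together with Hey at 1327 and nerfin-1 at 668 CPM. The 7 low-scoring ones had summed levels of 306 CPM of dpn, 560.1 CPM of ase and 2196 CPM of cas, a temporal factor. A single cell of these held 2014.73 CPM of dpn, and the rest held only 1.13 to 23.98 CPM. Low scores were not limited to cells outside the type II class. The lowest cell of plate 3, at 5.74, was type II-like with 142.2 CPM of dpn, 1567 CPM of mira, 415 CPM of pnt and 0 reads of ase, and the second lowest of plate 4, at 6.39, was type II-like too. Because these cells fall unequally on the plates and groups, many results are also given for type II-like cells alone, ranked anew (27 high-scoring and 27 low-scoring cells on plate 3, 24 and 24 on plate 4).

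**Figure D2:**
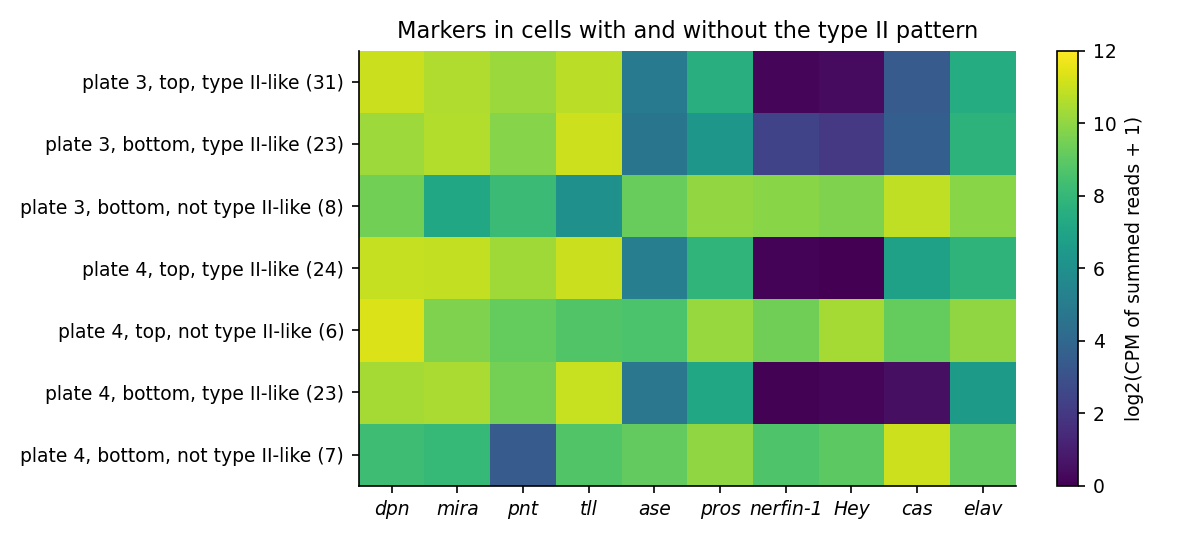
Levels of lineage and progeny markers, as log2(CPM + 1) of summed reads, in type II-like and other cells of each score group (top means high-scoring, bottom low-scoring) and plate. Hey, nerfin-1 and cas are highest in cells outside the type II class, with 820.4, 944 and 1850 CPM in the 8 low-scoring cells of plate 3.

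Most identity markers of other cell types were rare in both groups. At 100000 reads, alrm (astrocytes), brp (synapses), Hml and NimC1 (hemocytes) had no read in any high-scoring or low-scoring cell, and 0 of 31 cells allows a share of up to 9.68% with a read. A read of repo, the glial identity factor, was seen in 0 high-scoring cells and in 1 low-scoring cell of each plate. The glial factor gcm had a read in 3 of 30 high-scoring and 1 of 30 low-scoring cells of plate 4. The synaptic gene nSyb had one in 1 high-scoring and 1 low-scoring cell of plate 3 and in 2 high-scoring cells of plate 4, and moody (glia) and srp (hemocytes) in 1 low-scoring cell each. Not all markers were rare, since loco of the glial list had reads in 36.7 to 66.7% and Syt1 of the neuron list in 86.7 to 96.8% of the cells of a group. Of 10 glial list genes 4 reached 10 CPM. Their summed level per cell ran from 0 to 794.8 CPM (median 235) in high-scoring and from 0 to 1119.6 CPM (median 446) in low-scoring cells of plate 3, with plate 4 medians of 278 and 454 CPM. Most of it was Eaat1 and nrv2, a glutamate transporter and a sodium pump subunit. The neuron list of 12 genes had medians of 505 and 442 CPM per cell on plate 3 and 475 and 432 CPM on plate 4. The RNAi target brat was at 84.5 and 107.1 CPM on plate 3 and at 65.7 and 73.7 CPM on plate 4, a log2 ratio of high-scoring over low-scoring of -0.34 and -0.17.

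More genes were lower than higher in high-scoring cells. Of 5860 genes with at least 10 CPM over the kept tumor cells, which are called measured below, 62 were called higher (1.06%) and 288 lower (4.91%). On plate 3 alone 253 genes (4.32%) were 2-fold higher or more and 878 (15.0%) lower, and on plate 4 alone 349 (5.96%) and 896 (15.3%). The median log2 ratio of all genes was -0.18 on plate 3 and -0.16 on plate 4, and ratios near this value mean no difference from the bulk of genes. Scaled by TMM, which brings that median to 0.00, the counts were 99 higher and 209 lower.

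The plates shared part of the pattern. Of the 253 genes higher on plate 3, 24.5% were also higher on plate 4, against 5.96% of all genes, and 16.2% were lower there by 2-fold or more. Of the 878 lower genes, 32.8% were lower on plate 4, against 15.3% of all genes, and 4.78% were higher by 2-fold or more. Pearson's r between the plates' log2 ratios, across genes that are not independent, was 0.19 for all 5860 genes and 0.49 for the 528 genes of at least 300 CPM. Called genes were mostly of low level. Their median was 34.3 CPM for higher and 22.98 CPM for lower genes, against 58.4 CPM over all genes tested, and at 300 CPM or more 2 genes were higher and 0 lower. The middle-scoring cells lay between the other groups on both plates for 31 of the 62 higher and 51.04% of the 288 lower genes.

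**Figure D3:**
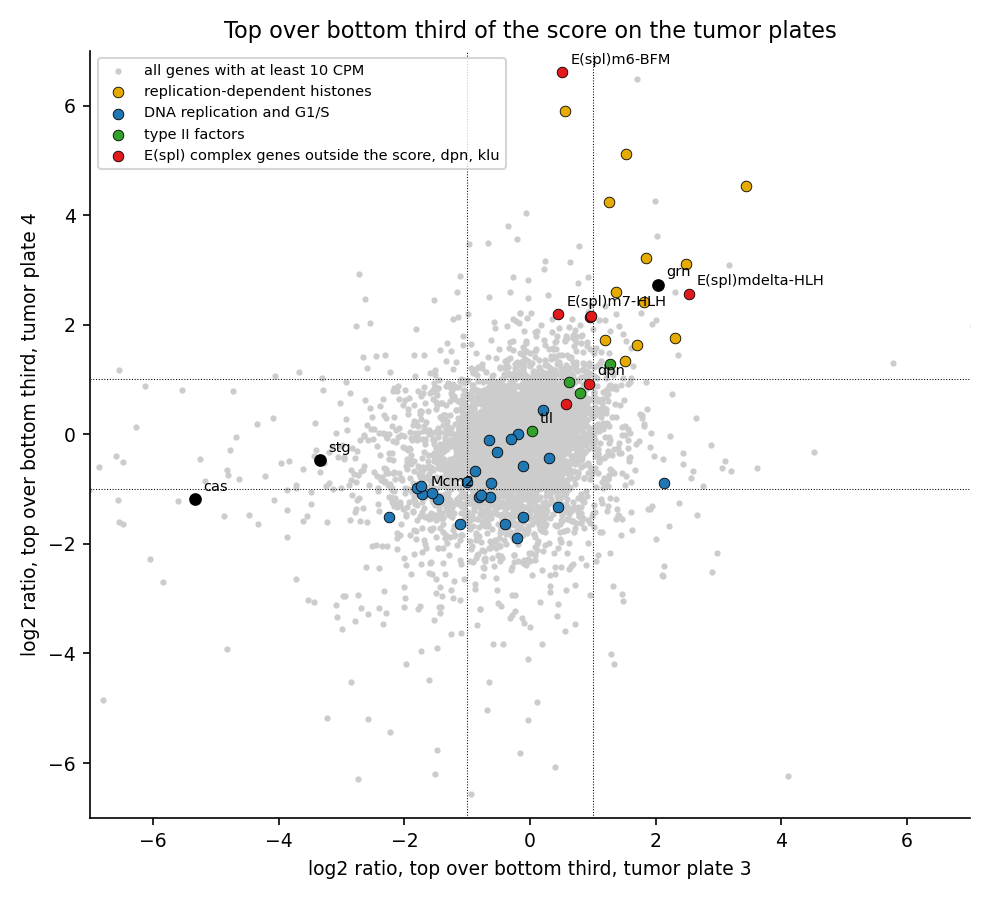
Log2 ratio of high-scoring (top) over low-scoring (bottom) cells on plate 3 (x axis) and plate 4 (y axis) for 5860 genes, with 53 genes outside the axes, which end at 7. E(spl)mdelta-HLH and grn lie far up on both axes (2.52 and 2.57, 2.03 and 2.73), and Mcm2 lies low on both (-1.72 and -1.10).

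Of the 12 measured Notch targets outside the score, E(spl)mdelta-HLH was the 1 called higher. This gene is another bHLH repressor of the complex, next to E(spl)mgamma-HLH (3R, 25997621 to 25998633, forward strand). On plate 3 it ranged from 0 to 618 CPM per cell in high-scoring cells, with a median of 120.3, and from 0 to 229 CPM with a median of 0 in low-scoring cells. On plate 4 the range was 0 to 1897 CPM (median 119.5) against 0 to 272 CPM (median 8.36). The single cells thus overlap, and the groups differ both in how many cells carry it and in its level. Without thinning a read was found in 87.1% of high-scoring and 48.4% of low-scoring cells on plate 3, and in 90.0% and 53.3% on plate 4. Summed levels were 172.8 CPM (95% interval 168.3 to 177.3, counting error only) against 30.1 CPM (28.3 to 31.9), and 284 against 48.03 CPM, which is 5.75-fold and 5.92-fold higher. The Spearman correlation with the score was 0.46 and 0.48. In type II-like cells alone the log2 ratios were 2.09 and 2.30, and in cells balanced for genes per cell 2.36 and 2.83.

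The other measured members of the complex were higher on both plates but under 2-fold on plate 3. E(spl)m7-HLH, also a bHLH repressor, was at 970.1 and 714 CPM on plate 3 (log2 ratio 0.44) and at 1502 and 327 CPM on plate 4 (2.20). In type II-like cells alone it reached 1.73 and 2.73 and was called. E(spl)m3-HLH was low, at 33.5 and 17.4 CPM on plate 3 and 75.6 and 17.2 CPM on plate 4. Of the Bearded family genes in the complex, E(spl)malpha-BFM had 882 and 451 CPM on plate 3 (0.97) and 701 and 156.04 CPM on plate 4 (2.17). Bearded family proteins inhibit the ubiquitin ligase Neuralized, which activates Notch ligands.

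Of the measured members of the complex E(spl)m6-BFM had the widest ratio on plate 4, and a single cell set much of it. It was at 634 CPM in high-scoring and 6.48 CPM in low-scoring cells there, and 46.3% of the high-scoring reads came from 1 cell of 10842 CPM. On plate 3 it was at 45.8 and 32.1 CPM, and its median per cell was 0 in both groups. Among type II-like cells alone its log2 ratios were 2.59 and 6.37.

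Targets outside the complex differed less. The list of 7 measured ones had medians of 0.51 and 0.25, with 0 called. Over all 12 measured Notch targets outside the score, the median of the mean ratio of both plates was 0.75, against -0.18 over all genes. A difference of like size on both plates was seen in dpn, the repressor gene deadpan that keeps neuroblasts self-renewing. Per cell it ran from 643 to 5083 CPM (median 2001) in high-scoring and from 1.64 to 4675 CPM (median 841) in low-scoring cells of plate 3. On plate 4 it ran from 4.21 to 4664 CPM (median 1918) and from 1.13 to 2371 CPM (median 1207). The log2 ratio of the sums was 0.94 and 0.92, just short of 2-fold on both plates, and the Spearman correlation with the score was 0.54 and 0.47. Exons of dpn overlap an antisense RNA gene, and the sources used here do not say whether strand was used in counting. For dpn in type II-like cells the ratios were 0.85 and 0.58.

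The zinc finger gene klu, a self-renewal factor, had ratios of 0.57 and 0.56, from 1842 and 1238 CPM on plate 3 and 1722 and 1171 CPM on plate 4. The growth regulator Myc had 0.51 and 0.25. The cyclin gene CycE had -0.19 and 0.00, and grh, a Grainyhead transcription factor gene, 0.30 and -0.20. The HES-related gene Hesr had 0 reads in all 4 groups. The Ets inhibitor gene edl was at 240.9 and 160.1 CPM on plate 3 and at 95.6 and 252 CPM on plate 4, in opposite directions. Hey, a target in newborn neurons, was at 0.27 and 178.97 CPM on plate 3 and at 254 and 104.4 CPM on plate 4. It stood mostly in cells that were not type II-like.

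Transcripts of the pathway itself showed no common direction. The receptor N was at 548 CPM in high-scoring and 565 CPM in low-scoring cells of plate 3 (-0.04), and at 651 and 517 CPM on plate 4 (0.33). Its levels per cell overlapped widely, with medians of 549 and 465 CPM on plate 3 and 561 and 452 CPM on plate 4. None of the 7 genes of the nuclear complex and its corepressors was called, and their medians were -0.30 and -0.18. Su(H) had 0.24 and -0.18, the corepressor gro 0.03 and 0.01 and CtBP 0.39 and 0.45. The coactivator mam had negative ratios, at 14.6 and 56.4 CPM on plate 3 (-1.95) and 28.8 and 44.4 CPM on plate 4 (-0.63). H, the adaptor through which Su(H) represses, was at 67.9 and 121.3 CPM on plate 3 and 43.5 and 67.3 CPM on plate 4, -0.84 and -0.63. Of 13 genes for processing and trafficking of the receptor 0 were called (medians -0.23 and 0.01). The inhibitor numb had 0.27 and 0.48, and dx, a ubiquitin ligase of Notch trafficking, 0.76 and 0.99.

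Type II factors leaned to the high-scoring cells. All 4 measured factors had positive ratios on both plates (medians 0.71 and 0.86) and btd was called. The ETS factor gene pnt was at 1171 and 765 CPM on plate 3 (0.61) and at 1106 and 569 CPM on plate 4 (0.96). Its median per cell was 1128 against 785 CPM and 1074 against 519 CPM, with overlapping ranges. The zinc finger gene btd was at 133.5 and 55.01 CPM on plate 3 and 105.8 and 43.6 CPM on plate 4, 1.28 on both. It was no longer called in type II-like cells (0.90 and 1.17) or balanced for genes per cell (1.28 and 0.96). Its relative Sp1 had 0.80 and 0.76, and the orphan receptor gene tll 0.02 and 0.05, at 1708 to 1781 CPM in every group. In type II-like cells alone, which these genes define, 3 of the 4 had positive ratios on both plates and 0 were called, and pnt had 0.50 and 0.73.

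Neuroblast identity genes had medians of 0.30 and 0.47 over 11 genes, with 0 called, and dpn and klu are among them. The Snail family gene wor was at 2103 and 1268 CPM on plate 3 (0.73) and at 2397 and 1515 CPM on plate 4 (0.66). SoxN had 0.57 and 0.35, and mira, the adaptor that segregates fate determinants, 0.30 and 0.52. In the other direction, ase was at 30.9 and 146.4 CPM on plate 3 (-2.24) and 101.4 and 138.6 CPM on plate 4 (-0.45), and the median cell had at most 1.85 CPM in each group. The transcriptional cofactor nab had -0.64 and -1.52.

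**Figure D4:**
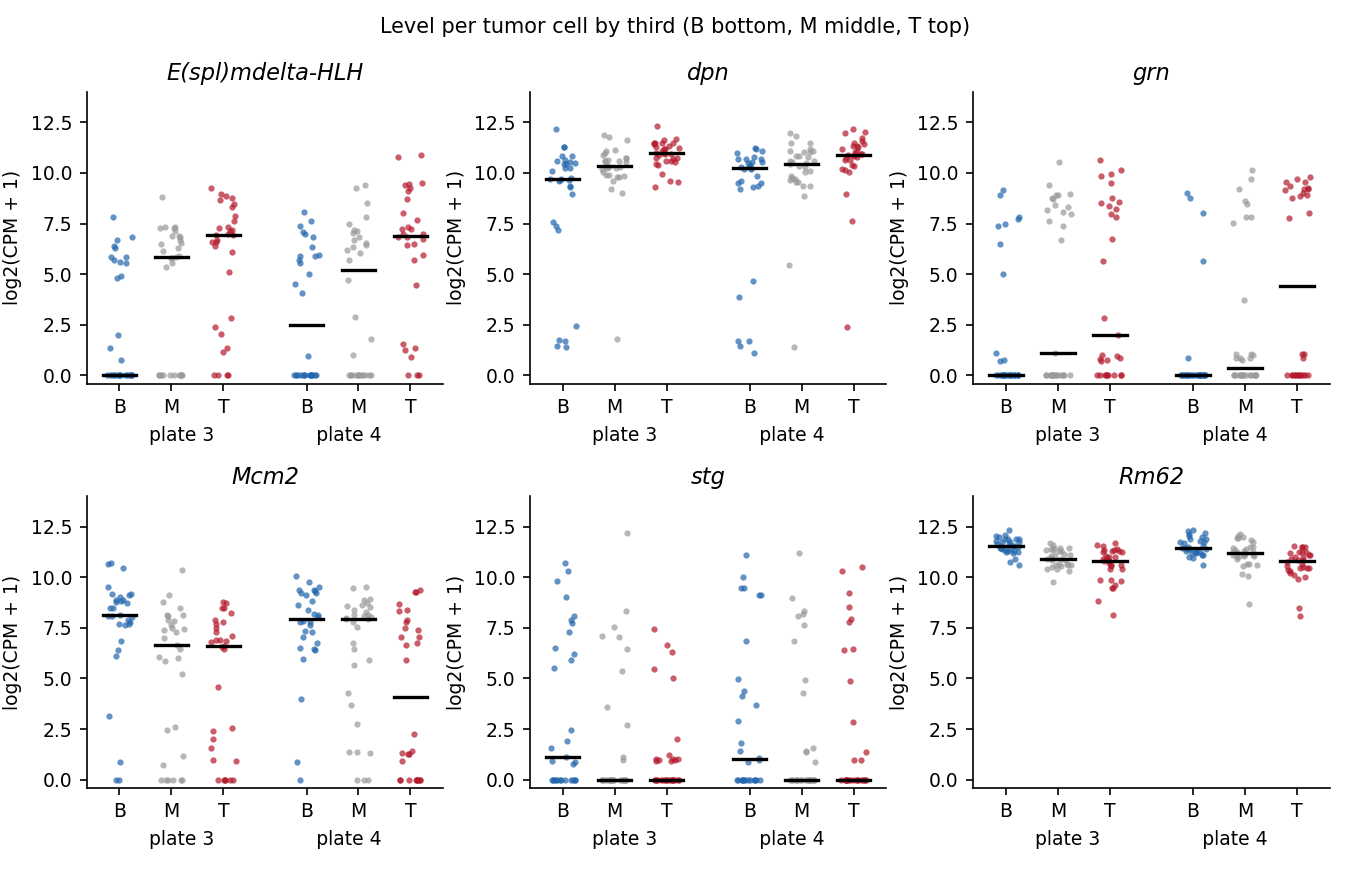
Levels per cell, as log2(CPM + 1), of E(spl)mdelta-HLH, dpn, grn, Mcm2, stg and Rm62 in low (B), middle (M) and high (T) scoring cells of plates 3 and 4, with lines at the medians. The median of dpn is 841 CPM in low-scoring and 2001 CPM in high-scoring cells of plate 3, and the points of all 6 genes overlap between the groups.

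The 15 highest genes by the smaller of the plate ratios were E(spl)mdelta-HLH, grn, CG3548, CG34423, CG3071, CG10927, Mur2B, 7 histone genes or pseudogenes and the feature FBtr0307760. Exons of CG34423 and CG10927 overlap a gene on the other strand and those of Mur2B overlap CG3740 on its own. Balanced for genes per cell, Mur2B had 1.14 and -0.41, CG34423 0.99 and 2.14 and FBtr0307760 0.99 and 0.49, short of a call. The GATA factor gene grn (3R, 8147368 to 8181444, reverse strand) was at 252 CPM in high-scoring and 61.6 CPM in low-scoring cells of plate 3, and at 302 and 45.4 CPM on plate 4, 4.09-fold and 6.64-fold higher. Its level per cell was uneven. The median in low-scoring cells was 0 on both plates. A read was found in 70.97% and 35.5% of cells on plate 3 and in 60.0% and 16.7% on plate 4. These shares count any read of grn. Some of the counted cells of plate 3 held little, such as 0.67 CPM in a high-scoring and 0.72 CPM in a low-scoring cell. Its highest cells had 1607 CPM in the high-scoring and 579 CPM in the low-scoring group of plate 3, and 877 and 514 CPM on plate 4. The log2 ratios of 2.03 and 2.73 were 2.21 and 2.06 in type II-like cells and 1.48 and 1.61 in cells balanced for genes per cell.

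CG3548 was at 100.2 and 25.04 CPM on plate 3 and at 104.3 and 24.5 CPM on plate 4, 4.00-fold and 4.25-fold higher. Its median per cell was 71.3 CPM on plate 3 and 42.1 CPM on plate 4 in high-scoring cells and 0 in low-scoring cells. CG3071, whose exons overlap CG2924, was 3.04-fold and 2.96-fold higher, yet a read was found in about as many cells of each group (48.4% and 45.2% on plate 3, 53.3% and 50.0% on plate 4), and balanced for genes per cell its ratios were 1.54 and 0.44. CG34423 was at 51.2 and 10.3 CPM on plate 3, where 61.4% of the high-scoring reads came from 1 cell. CG32428, picked after its values were seen for its rank correlation (0.42 and 0.35), was at 354 and 148.1 CPM on plate 3 and at 375 and 133.4 CPM on plate 4. Its balanced ratios of 0.84 and 0.75 were under 2-fold. A read of it was seen in 80.6% or more of the cells of every group.

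The 13 core histone gene copies among the 62 higher genes form 1 result, since reads of these near-identical genes cannot be assigned to a copy with certainty. Their list was made after the values were seen. Of 14 measured copies 13 were called, with median log2 ratios of 1.76 and 3.16. Replication-dependent histone mRNAs normally end in a stem loop without a poly(A) tail, and the libraries were primed with oligo-dT, so they see the tailed fraction only. Summed over all 31 copies, the median per cell on plate 3 was 1945 CPM in high-scoring, 409 CPM in middle-scoring and 188.8 CPM in low-scoring cells. On plate 4 these medians were 297, 75.8 and 36.5 CPM. The ranges overlapped, from 24.6 to 28779 CPM and from 26.5 to 15618 CPM in high-scoring and low-scoring cells of plate 3. Levels of at least 1000 CPM were reached by 20, 10 and 6 cells of 31 each on plate 3, and by 4 of 30, 4 of 32 and 0 of 30 cells on plate 4. Control cells lay at summed levels of 953 and 1569.5 CPM.

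Histone levels went with few genes per cell. The Spearman correlation between histone CPM and genes per cell was -0.52 and -0.42 on the plates, and with the score 0.41 and 0.39. In cells balanced for genes per cell 11 of 14 copies were still at least 2-fold higher on both plates (medians 1.57 and 2.03). In type II-like cells alone 10 of the 14 were called, with medians of 2.60 and 1.69. What part the fewer genes have in this difference was not tested further.

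DNA replication genes leaned to the low-scoring cells. Of 25 measured genes 21 had negative ratios on both plates, against 40.9% of all genes. Of the 25 genes 5 were called lower, against 4.91% of all genes, and 0 higher, with medians of -0.64 and -0.98 against -0.18 and -0.16 over all genes. Balanced for genes per cell 2 genes were lower and 18 of the 25 remained negative on both plates, against 2138 of all 5860 genes. The balanced medians were -0.44 and -0.36, against -0.13 and -0.09 over all genes. In type II-like cells alone they were -0.76 and -1.02, with 4 lower.

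Within this list the 5 measured subunits of the MCM helicase, which unwinds DNA at the replication fork, all had negative ratios of uneven size. Mcm2 was at 123.3 CPM in high-scoring and 407 CPM in low-scoring cells of plate 3 and at 159.9 and 342 CPM on plate 4 (-1.72 and -1.10), and in type II-like cells it was no longer called (-1.40 and -0.77). Its median per cell was 97.7 against 282 CPM and 31.4 against 244 CPM, and the ranges began at 0 in every group. Mcm5 had -1.47 and -1.19, dpa (Mcm4) -1.80 and -0.98, Mcm6 -0.64 and -1.14 and Mcm7 -0.40 and -1.64. The helicase loading factor dup (Cdt1) was at 64.1 and 189.6 CPM on plate 3 and 82.97 and 175.4 CPM on plate 4, -1.57 and -1.08. Balanced for genes per cell Mcm2 was among the 2 genes of the list still lower (-1.72 and -1.003). Mcm5 and dup were therefore not both called then, and their own balanced values were not taken. The primase subunit Prim1 and thymidylate synthase Ts, whose exons overlap Rbp9, were the other called genes, Ts at 13.4 and 63.2 CPM on plate 3 and 31.7 and 90.1 CPM on plate 4. Neither was called when balanced for genes per cell, with -0.86 and -0.01 for Prim1 and -1.17 and -0.77 for Ts, and in type II-like cells Prim1 had -0.21 and -1.17. The sliding clamp PCNA missed 2-fold with -0.998 and -0.88. The replication inhibitor geminin had the opposite sign, with 0.20 and 0.45.

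Cdc45, another helicase factor that was not on the list, was lower on both plates, at 25.8 and 85.6 CPM on plate 3 and 4.65 and 72.4 CPM on plate 4, and balanced for genes per cell it missed 2-fold on plate 4 (-1.90 and -0.92). Per cell, the summed replication genes had a median of 2318 CPM in high-scoring and 4093 CPM in low-scoring cells of plate 3, and of 1989 and 3468 CPM on plate 4. Histone and replication levels were opposed across cells, with Spearman correlations of -0.44 on plate 3 and -0.20 on plate 4.

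Mitotic genes leaned to the low-scoring cells over all tumor cells, without a call, but not in type II-like cells alone. Of 32 measured G2/M genes 22 (68.75%) had negative ratios on both plates, against 40.9% of all genes, with medians of -0.34 and -0.31. Balanced for genes per cell 24 were negative on both plates, against 2138 of all 5860 genes. The balanced medians were -0.55 and -0.34, beside -0.44 and -0.36 for the replication genes and -0.13 and -0.09 for all genes. In type II-like cells alone the medians of the G2/M genes were -0.02 and -0.15, against -0.15 and -0.15 over all genes. There 11 of the 32 were negative on both plates, against 2313 of all 5824 genes. Of the 32 genes 2 were lower, against 5.89% of all genes. The mitotic phosphatase gene stg was at 17.01 and 172.9 CPM on plate 3 (-3.35) and at 165.9 and 230.5 CPM on plate 4 (-0.47). Among type II-like cells it was lower on both plates (-3.01 and -2.05), and balanced for genes per cell it was lower on plate 3 only (-1.95 and -0.06). Its reads sat in few cells, with medians of at most 1.15 CPM per cell, and 42.2% of the low-scoring reads of plate 4 came from 1 cell. The kinase gene polo had -0.90 and -0.74, and feo, a midzone protein gene, -0.70 and -0.61.

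The 15 lowest genes by the same rule were rare transcripts. They were Naxd, mthl10, CG33523, Nthl1, CG7407, DnaJ-60, BHD, CG12643, CG6178, CG43783, CG6231, nAChRalpha5, Mgat2, Veneno and CG31125. Each stood at 10.1 CPM or less in the high-scoring cells of both plates, CG12643 the highest of them. It had 1.18 and -1.66 when balanced for genes per cell, and Mgat2 -1.90 and -0.64, so neither was then called. CG33523 was at 6.57 CPM in high-scoring and 55.99 CPM in low-scoring cells of plate 3, 8.52-fold lower, and at 6.67 CPM in high-scoring cells of plate 4, 8.70-fold lower. A read was found in 9.68% against 48.4% of cells and in 23.3% against 60.0%. Nthl1, a base excision repair glycosylase, was at 4.38 and 37.02 CPM on plate 3 and at 4.24 and 42.7 CPM on plate 4. A single cell gave 82.6% and 75.4% of its high-scoring reads, and a read was found in 9.68% against 35.5% and in 10.0% against 60.0% of cells.

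BHD, the fly folliculin, was at 6.45 and 50.8 CPM on plate 3 and at 4.62 and 35.6 CPM on plate 4, and its exons overlap RpL18, an abundant ribosomal protein gene on the other strand. Naxd, an enzyme that repairs damaged NADH, was at 0.15 and 28.9 CPM on plate 3 and at 0.83 and 25.3 CPM on plate 4, and in each high-scoring group 1 cell gave 95.8% or more of the reads. In cells balanced for genes per cell the log2 ratios of CG33523 were -2.65 and -1.94, those of Nthl1 -2.01 and -2.93 and those of BHD -2.82 and -2.64.

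Among abundant genes Rm62, a DEAD-box RNA helicase gene (3R, 6000426 to 6008579, reverse strand), went against the score most regularly. It was picked after the values were seen. Every cell had reads, from 281 to 3343 CPM (median 1779) in high-scoring and from 1574 to 5162 CPM (median 2966) in low-scoring cells of plate 3. On plate 4 the values were 273 to 2941 CPM (median 1772) and 1579 to 5203 CPM (median 2764). The lowest of the low-scoring cells thus lay near the median of the high-scoring cells. The log2 ratio was -0.75 and -0.77. The Spearman correlation with the score was -0.58 and -0.54. The ratios were -0.65 and -0.76 in type II-like cells and -0.71 and -0.67 in cells balanced for genes per cell. Across 5856 genes, 13 had a Spearman correlation of at least 0.3 on both plates and 28 had one of -0.3 or lower.

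Other genes of middle level were lower on both plates as well. The histone kinase gene ball was at 115.5 and 246 CPM on plate 3 and at 71.7 and 256 CPM on plate 4, and it missed 2-fold on plate 3 both balanced for genes per cell (-0.92 and -1.15) and in type II-like cells (-0.77 and -1.65). The nuclear envelope gene gcl, whose exons overlap CG30356, was at 47.9 and 109.7 CPM and at 43.6 and 138.4 CPM. The kinase gene Akt was the called gene of the growth list, at 6.27 and 20.9 CPM on plate 3 and 4.83 and 24.8 CPM on plate 4, with balanced ratios of -1.09 and -0.89.

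Metabolic lists, which bear on the series' question of oxidative metabolism in these tumors, held few called genes. Of 66 nuclear-encoded respiratory chain genes 0 were called, with medians of -0.11 and -0.28. Negative ratios on both plates were seen in 60.6% of them, against 40.9% of all genes. When cells were balanced for genes per cell, this lean was absent on plate 3 and remained on plate 4. The medians were then 0.23 and -0.28, against -0.13 and -0.09 over all genes. Of the 66 genes 10 were negative on both plates, against 2138 of all 5860 genes. The tricarboxylic acid cycle list had -0.30 and -0.40 over 18 genes, with 11 negative on both plates. Its medians in type II-like cells were -0.57 and -0.48. There 13 of 18 genes were negative on both plates, against 2313 of all 5824 genes, and 0 were positive. Balanced for genes per cell the medians of this list were 0.03 and -0.05. In it CG5214, a 2-oxoglutarate dehydrogenase component, was at 80.8 and 176.2 CPM on plate 3 and 129.99 and 286 CPM on plate 4 and was called lower. This call was lost when cells were balanced for genes per cell (0.03 and -0.48). Mitochondrial dynamics genes had -0.64 and -0.09 over 14 genes with 0 called. Of 71 mitochondrial ribosomal protein genes 3 were lower (mRpL11, mRpL40 and mRpS33), a share near the 4.91% of all genes. Of these mRpL40 missed 2-fold when balanced (-0.86 and -1.24) and in type II-like cells (-1.55 and -0.70). Glycolysis genes had 0.06 and 0.19 over 13 genes. The lactate dehydrogenase gene Ldh was at 745 and 773 CPM on plate 3 and at 921 and 211 CPM on plate 4, so its ratio was -0.05 on one plate and 2.13 on the other.

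Nucleolar genes, which build ribosomes, had medians of 0.54 and 0.04 over 19 genes with 0 called, and 10 of them had positive ratios on both plates (52.6%, against 20.4% of all genes). Their member nop5, a small nucleolar ribonucleoprotein gene, had 0.89 and 0.86. The 79 cytosolic ribosomal protein genes had 0.15 and -0.10 with 0 called. Heat shock genes had -0.07 and 1.52 over 9 genes, where Hsp26 was at 1796 and 1157 CPM on plate 3 and at 2983 and 335 CPM on plate 4.

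**Figure D5:**
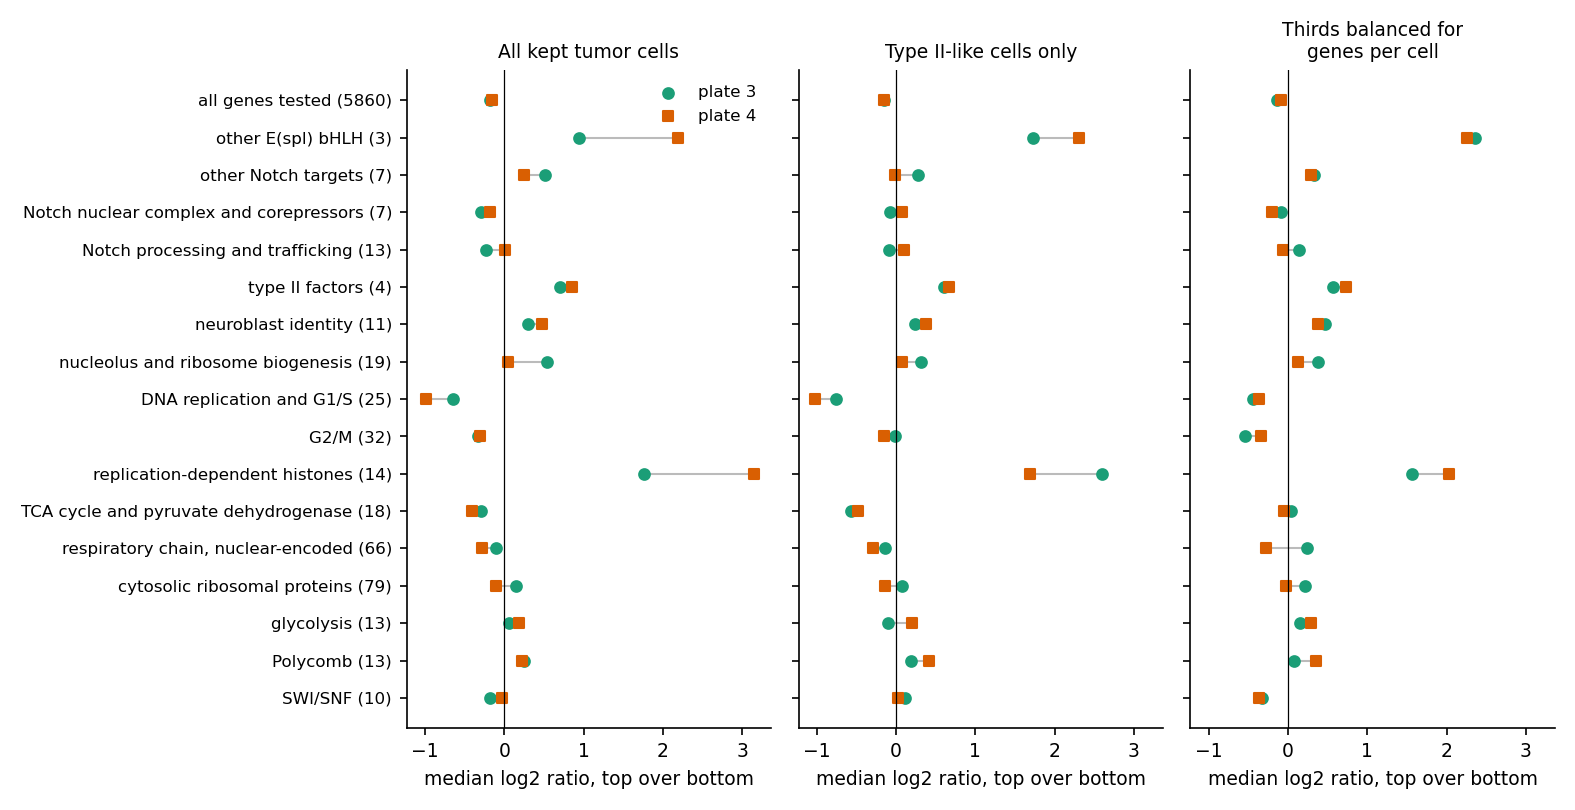
Median log2 ratio of high-scoring (top) over low-scoring (bottom) cells of each gene list on plates 3 and 4, in all kept tumor cells (left), type II-like cells alone (middle) and cells balanced for genes per cell (right), with the number of genes of the left panel in brackets. In the left panel the replication list lies at -0.64 and -0.98 and the histone list at 1.76 and 3.16, while all genes lie at -0.18 and -0.16.

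The 7 commitment genes pointed in different directions on the plates, with medians of -1.11 and 0.62. The 9 temporal genes had medians of -0.13 and -0.15, near those of all genes. Of these 9, 5 were negative and 3 positive on both plates. Of 7 commitment genes 1 was called, fne, an ELAV family RNA-binding protein gene with 1.07 and 1.03, which is also on the neuron list. It was no longer called balanced for genes per cell (0.74 and 1.09) or in type II-like cells (0.85 and 0.58). The neuronal factor nerfin-1 was at 0.12 and 207 CPM on plate 3 and at 127.7 and 86.7 CPM on plate 4, and elav had -1.11 and 0.96. The temporal factor cas was at 10.0 and 407 CPM on plate 3 and at 203 and 463 CPM on plate 4 and was called lower. Most of its reads sat in cells outside the type II class, and in type II-like cells alone the ratios were 0.23 and 8.18. The temporal genes Syp, for an RNA-binding protein, and chinmo differed little, with -0.13 and -0.06 and with 0.18 and -0.15. Imp, also on the temporal list, matched no symbol and has no value here. The progenitor genes erm and ham were called higher from few reads, with 0 reads in the low-scoring cells of plate 3 and 4.47 and 10.8 CPM in the high-scoring ones, and erm was at 74.5 and 30.4 CPM on plate 4. The ratio of erm on plate 4 was 0.97 when balanced for genes per cell, short of 2-fold.

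Restricting the comparison to type II-like cells gave counts of the same size. Of 5824 genes 68 were higher (1.17%) and 343 lower (5.89%), of which 34 of the higher and 54.2% of the lower genes were called over all cells as well. Balanced for genes per cell (30 cells per group and plate, medians of 3157.5 and 3145.5 genes), 69 genes were higher and 2.51% of all genes tested were lower. Of these, 26 and 96 genes were called in the full comparison.

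The same split of control cells served as a comparison. The score divided them at lower levels, with medians of 9.04 and 9.46 in high-scoring and 6.36 and 6.66 in low-scoring control cells, and the number of genes per cell was close (4654 and 4551 on plate 1, 5292 and 5355 on plate 2). Of 5854 genes 32 (0.547%) were higher and 9 (0.154%) lower. Genes higher in both comparisons numbered 7, which is 11.3% of the 62 in tumor and 21.9% of the 32 in control. These were E(spl)mdelta-HLH, 5 histone copies and the homeobox gene hbn, and 0 lower genes were shared.

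Complex members went with the score in control cells too. E(spl)mdelta-HLH was at 78.3 and 19.4 CPM on plate 1 and at 50.3 and 5.13 CPM on plate 2, and E(spl)m7-HLH had ratios of 3.81 and 3.99. In control cells dpn had 0.46 and 0.42 and Mcm2 0.21 and 0.30. The replication list had medians of -0.05 and 0.02, grn was at 8.00 to 26.3 CPM in every group, and Rm62 had 0.32 and 0.08. Whether these ratios differ between tumor and control was not tested, since each is 1 pool.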

How the data were processed

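Each single cell was made into a SMART-Seq2 library with 18 PCR cycles and without molecular identifiers, per the labels' protocols. The authors deposited raw counts of reads for each gene in each cell, as whole numbers. Genome builds in the submitters' processing notes are BDGP6 and dm6. The sources used here do not name the aligner or counter, or say if strand was used. Plates were taken from the library numbers in the labels, in blocks of 96 that each hold the same 96 index pairs once.

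Cells under 100000 reads or 1000 genes were left out. Reads were summed per group and plate to CPM, with 3 reads in place of a sum of 0. Intervals are exact Poisson for CPM and Clopper-Pearson for shares, at 95%, and cover counting error only, since reads include PCR copies. Correlations over cells are Spearman's, of cells that share a pool and differ in depth. Of 14219 features, 13701 had a symbol and hold 94.8% of reads. Of the genes in 35 lists, 20 matched no symbol. Coordinates and overlaps came from Ensembl release 115 on BDGP6.

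Members and lists were chosen with earlier results of these data known. In the list of other Notch targets, 1 wrongly matched symbol was replaced by Hesr after values were seen. Named are the 15 highest and 15 lowest genes by the smaller plate ratio (at least 2-fold on both plates and in the equal-weight mean over cells, with a read in at least 25% of cells of the higher group), members of the Notch lists and of lists of 8 or fewer, up to 4 of other lists, and Ldh, ase, brat, Syp, chinmo, cas and Gadd45. Other genes named, such as Rm62, CG32428, Cdc45, ball, gcl and list members beyond 4, were chosen after their values were seen. No doublet caller was run, since cells were sorted singly. The steps were tested on simulated counts. Alternatives covered weighting, thinning, scaling (TMM from edgeR 4.0.16 in R 4.3.3, median of ratios), the share of cells compared, cell filters, the score, each plate left out and the minimum level. Python 3.11.15 was used with SciPy 1.17.1, pandas 2.3.3, NumPy 2.4.6 and, for the plots, Matplotlib 3.10.9.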

Additional observations from a re-analysis of the deposited data

Results flagged for a closer look

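For 5 named genes of at least 10 CPM in both tumor and control cells, the split by score went in opposite directions in tumor and control cells, by at least 0.5 on the log2 scale on all 4 plates. The mean log2 ratio of CG3548 was 2.04 in tumor and -0.78 in control cells. The coactivator gene mam had -1.29 in tumor and 0.58 in control cells, and GstD1, a glutathione S-transferase gene, 0.79 and -0.66. The type II factor pnt had 0.79 and -5.91, and control cells held at most 31.6 CPM of it in either group. Few control cells were type II-like, 0 in both high-scoring groups and 1 and 3 in the low-scoring groups of plates 1 and 2. The control ratio of pnt thus depends on where few cells fell. The temporal factor cas had -3.26 and 4.40. These differences were not tested.

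Reads of the score genes were also found in the 7 shallow tumor wells that entered no comparison. They held 1092 CPM of E(spl)mgamma-HLH (79 of 72374 reads), 318 CPM of E(spl)mbeta-HLH (23 reads) and 249 CPM of E(spl)m8-HLH (18 reads). The 12 control wells left out held 858, 51.1 and 37.5 CPM, so E(spl)mgamma-HLH differed least. Whether these wells held a cell was not tested.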

How the results depend on the processing

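The 62 higher (1.06% of genes tested) and 288 lower genes (4.91%) rested on both plates. Without plate 3, where 1 plate alone makes a call, there were 349 (5.96%) and 896 (15.3%), and without plate 4 253 (4.32%) and 878 (15.0%). TMM and median of ratios scaling each gave 99 higher genes (1.69%) and 209 lower, and took the median of all genes from -0.18 to 0.00, so that higher genes made up 32.1% of the calls in place of 17.7%. With 23 cells per group and plate, 94 genes (1.604%) were higher, and with 46 cells 34 (0.580%) were higher and 85 (1.45%) lower. Without a minimum level there were 196 (1.38%) and 676 (4.76%), and at 50 CPM or more 22 (0.672%) and 57 (1.74%). With cells balanced for genes per cell, an alternative chosen after seeing the data, 2.51% were lower.

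Equal weight per cell, thinning, stricter cell filters and other scores moved the counts by less than 1.5 times, to between 56 and 68 higher and between 226 and 352 lower. A score without 1 of its genes kept 27 to 38 of the 62 higher genes. The median ratio of the 12 other Notch targets, 0.75, was 1.16 with a score without E(spl)mgamma-HLH. Without a minimum level the median was 1.32, over a larger set of 21 targets. Of 56 named genes that were called, 54 kept the sign of the mean ratio of the plates in all alternatives. The exceptions were cas, at 4.21 in type II-like cells only, and erm, at -3.56 with a score without E(spl)mbeta-HLH. The cause was not tested. No paired analysis was possible because both plates of a group come from 1 pool and no test was made. Depth limits genes under 50 CPM, where 64.5% of the higher and 80.2% of the lower genes lie, against 44.1% of all genes tested.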

Other observations

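Single genes of the stress and glial lists were called higher. Gadd45, a stress-induced gene, was at 313 CPM in high-scoring and 121.4 CPM in low-scoring cells of plate 3 and at 649 and 141.9 CPM on plate 4, where 41.6% of the high-scoring reads came from 1 cell. Balanced for genes per cell its log2 ratios were 0.79 and 0.08. Indy, a citrate transporter gene of the glial list, was at 10.3 and 2.03 CPM on plate 3 and at 27.2 and 9.97 CPM on plate 4, with a median of 0 per cell in every group. Its balanced ratio on plate 4 was 0.08.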
